A study of Mus musculus with 8 samples.

Results

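The 44 genes described here encode ATP-dependent chromatin remodelling enzymes and the subunits they work with. They were taken as a given list of gene names, 11 for the core of the BAF (SWI/SNF) complexes, 5 for canonical BAF, 5 for PBAF and non-canonical BAF, 2 ISWI ATPases, 6 CHD ATPases, 13 NuRD genes, and Ino80 and Smarcad1. Each gene was represented by its brightest probe set carrying that single symbol, and all 44 of 44 were found among the 18193 genes on the array. The cells were mouse embryonic stem cells (ESCs) of the line R1/E, with 4 arrays of cells that received esiRNA against Rad21 and 4 arrays of cells that received esiRNA against luciferase (Luc), a gene mouse cells lack. An esiRNA is a pool of short interfering RNAs made by enzymatic digestion. Both groups were of the same line and otherwise untreated, were transfected with 800 ng of esiRNA and were harvested after 48 h. The labels name no genotype and describe the arrays as biological replicates 1 to 4 without saying what separated them, so the p-values measure the spread between these samples. All values are log2 GCRMA values, which are array signals corrected for background and normalized by the authors, and all differences are Rad21 esiRNA minus Luc esiRNA on that scale.

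Remodelling enzymes use ATP to slide, space, evict or exchange nucleosomes. BAF complexes are built around the ATPase Smarca4 (Brg1) or Smarca2 (Brm), and the form known from mouse ESCs, esBAF, uses Smarca4, Smarcc1 and Smarcd1 in place of Smarca2, Smarcc2 and Smarcd3, which are better known from differentiated tissues. NuRD joins a Chd4 or Chd3 ATPase to histone deacetylases and to either Mbd3 or Mbd2, which do not share a complex, and its Mbd3 form is known to be needed for ESCs to commit to lineages. ISWI enzymes space nucleosomes evenly, and CHD enzymes carry paired chromodomains that bind histone tails.

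The knock-down was seen at each of the 3 Rad21 probe sets, with log2 differences of -1.58 ± 0.21, -0.98 ± 0.19 and -2.59 ± 0.19 (SE, limma with Benjamini-Hochberg adjustment, adjusted p = 0.00222, 0.0114 and 1.64e-04). The knock-down was partial, with 33.4%, 50.6% and 16.6% of the Luc signal left. The call of the middle one, of the _x_at kind, did not hold within replicates 3 and 4 (adjusted p = 0.0659). Over 45037 probe sets, arrays of one group correlated with coefficients of 0.998 to 0.999, and the second principal component, with 11.6% of the variance, separated replicates 1 and 2 from replicates 3 and 4 of both groups. The ESC label was borne out by 6 of 6 ESC factors, all above a mean of 10 in both groups, of which 4 fell. Of 10 endoderm markers 4 rose and 6 had a mean under 4, with summed linear signals of 380 to 530 in Rad21 esiRNA and 108 to 138 in Luc arrays. Of 10 neuronal markers 2 rose, 2 fell and 4 had a mean under 4, and the summed signals were 12824 to 14862 in Rad21 esiRNA and 17065 to 19221 in Luc arrays. Most of this sum was Stmn2, bright in both groups, so the sum mainly follows that gene. Stmn2 (-0.51) and Tubb3 (-0.33) fell, and Neurod1 (0.94) and Map2 (0.60) rose. Of 9 measured fibroblast markers 1 fell and 8 had a mean under 4, with sums of 70.7 to 84.6 in Rad21 esiRNA and 73.6 to 78.3 in Luc arrays, and Col1a1 and Dcn were at the low end of the scale. Col3a1 of that list had 4.69, 4.25, 3.11 and 3.42 on the Rad21 esiRNA arrays, against 3.15, 3.095, 3.03 and 3.002 on the Luc arrays (difference 0.80, adjusted p = 0.189), and was called within replicates 1 and 2 (adjusted p = 0.0127). The calls of Map2 among the neuronal and Thy1 among the fibroblast markers ended without 5 and 4 of the single arrays (highest adjusted p = 0.0858 and 0.0709). The part of other cell types in the changes below was not tested. In RNA from whole wells, more RNA per cell and more cells that carry it cannot be told apart.

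Chromatin remodelling genes changed in both directions upon Rad21 knock-down, mostly by little, with clear changes of named paralogs in the BAF, ISWI, CHD and NuRD groups. At an adjusted p under 0.05, 19 of 44 were called (43.2%), against 22.6% of all 18193 genes. Of these 8 rose (18.2%, against 10.1% of all genes) and 11 fell (25.0%, against 12.6%). The members were mostly bright, with a mean of at least 4 for 41 of them, and among all genes of that brightness 38.6% were called, against 43.9% of those 41 members. The median difference was -0.026 over the 44 members and 0.0033 over all genes. On 22 members the 4 Rad21 esiRNA arrays did not overlap the 4 Luc arrays, among them all 19 called ones (27.8% of all genes did not overlap). At a mean of at least 4 the groups did not overlap for 21 of 41 members and for 4707 of 10299 genes. Of the 19 calls 13 were under 0.5 and 7 under 0.25 in size. Of the 4116 calls over all genes 2203 and 666 were. The largest were the falls of Smarcd3 and Mta3 and the rises of Chd7, Smarca1 and Smarca2, the size of the last being unsettled. The fall of Mta3 was called at its brightest probe set and not at the other one with signal (below).

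**Figure D1:**
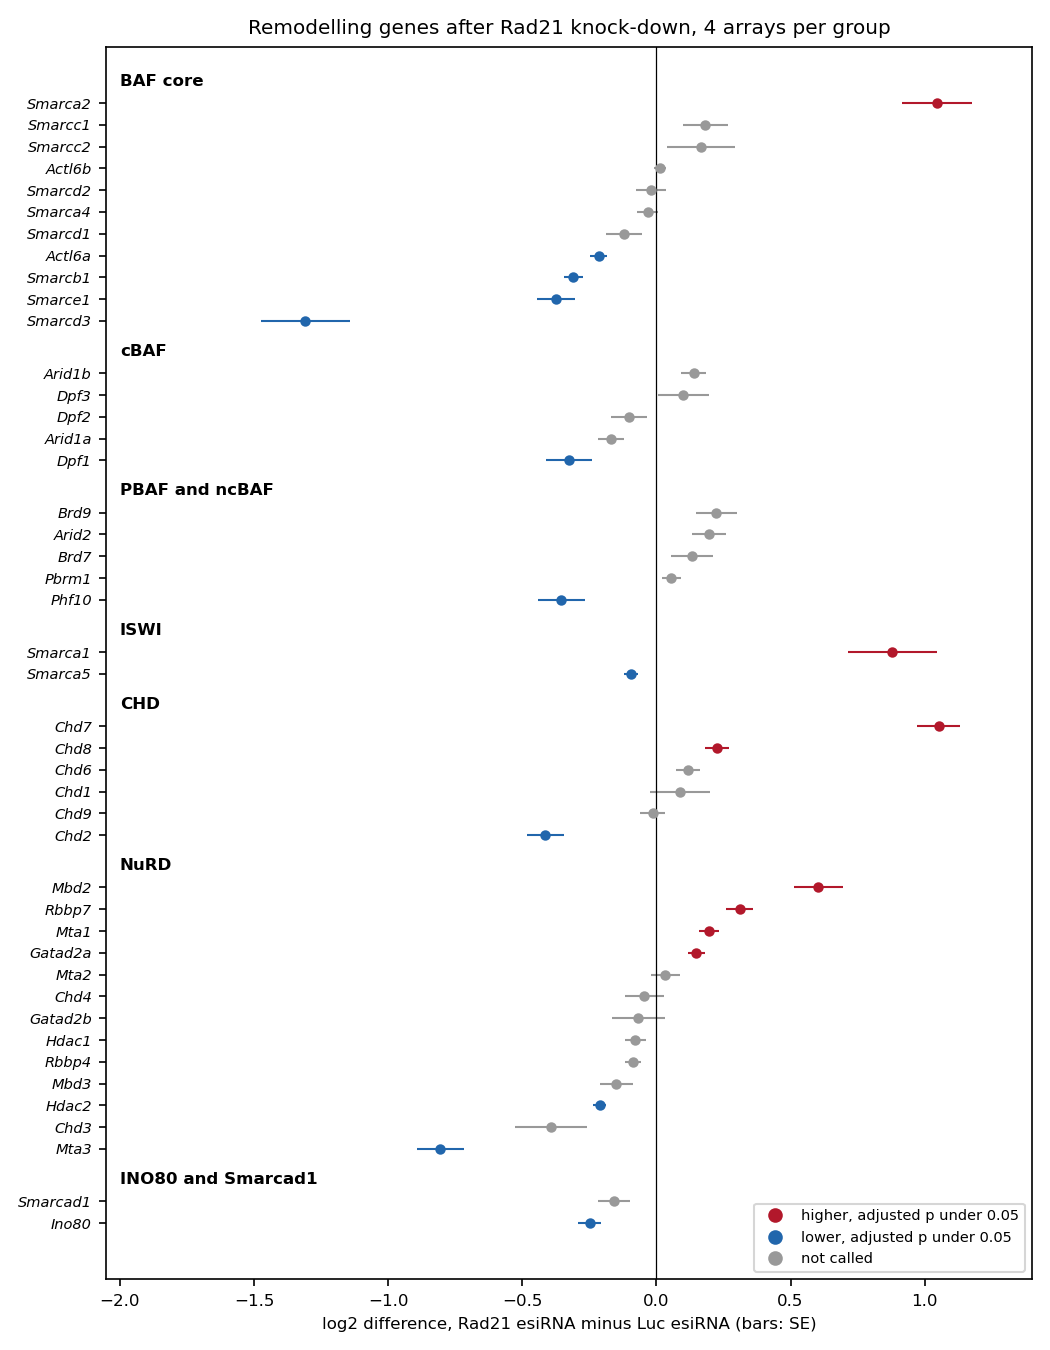
Log2 difference (Rad21 esiRNA minus Luc esiRNA, 4 arrays per group, horizontal axis) of the 44 remodelling genes, grouped by complex, with bars for the SE and colours for genes called higher or lower at an adjusted p under 0.05. Smarcd3 (-1.31) lies farthest to the left, Chd7 (1.05) and Smarca2, whose size is not settled, lie farthest to the right, and 25 members in grey were not called.

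Among the 5 members with the largest called differences, Smarcd3, Smarca2 and Smarca1 had a promoter window in the RefSeq table used here (build GRCm38.p6). Their 250 bases before the annotated start are shown as the sequence context of a BAF subunit, a BAF ATPase and an ISWI ATPase. Lower case marks the window, written 5′ to 3′ on the strand of the gene, and capitals mark GGGCGG (the GC box), CCAAT (the box bound by NF-Y), CCGGAA (the core bound by ETS factors), CACGTG (E-box) or TATAAA, on either strand.
Smarcd3 (chr5:24602003-24602252, minus strand): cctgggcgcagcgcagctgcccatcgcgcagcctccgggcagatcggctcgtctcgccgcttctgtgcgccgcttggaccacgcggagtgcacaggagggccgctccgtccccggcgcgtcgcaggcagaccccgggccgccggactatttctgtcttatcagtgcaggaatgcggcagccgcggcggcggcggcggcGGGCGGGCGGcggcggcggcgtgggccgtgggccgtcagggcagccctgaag
Smarca2 (chr19:26604910-26605159, plus strand): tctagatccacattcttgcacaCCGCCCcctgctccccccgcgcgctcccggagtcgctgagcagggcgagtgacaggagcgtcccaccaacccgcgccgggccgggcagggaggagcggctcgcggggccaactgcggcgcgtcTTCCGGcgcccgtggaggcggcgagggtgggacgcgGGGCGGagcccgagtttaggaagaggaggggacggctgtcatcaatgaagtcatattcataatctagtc
Smarca1 (chrX:47892614-47892863, minus strand): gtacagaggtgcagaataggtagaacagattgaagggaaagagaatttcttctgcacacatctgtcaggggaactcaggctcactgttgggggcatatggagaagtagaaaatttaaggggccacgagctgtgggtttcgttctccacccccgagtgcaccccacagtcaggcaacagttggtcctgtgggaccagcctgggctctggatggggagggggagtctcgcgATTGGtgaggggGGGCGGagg
The Smarcd3 window, of the gene that fell, held 38 CpG dinucleotides and 2 overlapping GC boxes. The Smarca2 window held 28 CpGs, 2 GC boxes and 1 CCGGAA, and the Smarca1 window 6 CpGs, 1 GC box and 1 CCAAT. Fewer CpGs than in these windows were found in 98.2%, 92.7% and 49.5% of the windows of 27025 genes, so the Smarca1 window stood in the middle and the others near the top. Of the 44 members 35 had a window, and these held a median of 22 CpGs, against 10 over 17492 protein-coding genes. GGGCGG was present in 30 of the 35 (85.7%), against 42.7% of protein-coding genes and 32.9% of all windows. CCAAT was present in 37.1% of the member windows, 36.3% of those of protein-coding genes and 34.5% of all. In the same order CCGGAA was in 22.9% (8 members), 15.2% and 12.2%. CACGTG was in 5.71%, 6.64% and 6.05%, and TATAAA in 5.71%, 12.4% and 13.0%. These are matches of letters in 1 window per gene and were not tested. The members were mostly bright, and no share was taken over windows of genes of like brightness.

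Among the BAF ATPases the form typical of ESCs did not pass the test and the other form was called higher, from the low end of the scale. Smarca2 had values (replicates 1 to 4, here and below) of 3.94, 3.68, 3.50 and 4.14 on the Rad21 esiRNA arrays, against 2.79, 2.71, 2.73 and 2.84 on the Luc arrays. All Rad21 esiRNA arrays were higher than all Luc arrays, with a mean difference of 1.05 ± 0.13 (SE, limma, adjusted p = 0.00172). The Luc level lay on the plateau to which GCRMA pulls dim probe sets, so the size of the rise is not settled, and the call did not hold within replicates 3 and 4 (adjusted p = 0.13). The second Smarca2 probe set, with means of 1.97 in Rad21 esiRNA and 1.93 in Luc arrays, was not called (0.041, adjusted p = 0.466). Smarca4, the ATPase of esBAF, had 12.05, 12.09, 12.14 and 12.08 with Rad21 esiRNA and 12.06, 12.09, 12.12 and 12.22 with Luc esiRNA, with overlapping groups and a difference of -0.032 (95% interval -0.12 to 0.058, adjusted p = 0.776).

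Of the 3 Smarcd paralogs, which link BAF to transcription factors, 1 fell and it fell the most of all members. Smarcd3, known from heart and muscle, had 6.28, 5.81, 5.45 and 5.74 in Rad21 esiRNA cells, against 7.10, 7.32, 7.01 and 7.09 in Luc cells. The knock-down left 40.4% of the Luc signal (log2 difference -1.31 ± 0.17, SE, adjusted p = 0.0018), and the groups did not overlap. The call of this gene, which has 1 probe set, held with any single array left out and in both replicate sets. Smarcd1, the esBAF paralog, had 7.43, 7.23, 7.48 and 7.45 on the Rad21 esiRNA arrays, against 7.62, 7.49, 7.42 and 7.55 on the Luc arrays (difference -0.12, adjusted p = 0.354). Smarcd2 overlapped as well, at 11.60, 11.49, 11.47 and 11.51 with Rad21 esiRNA and 11.59, 11.65, 11.41 and 11.50 with Luc esiRNA (difference -0.019, adjusted p = 0.937).

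Smaller falls were measured for 3 other core subunits of BAF. Smarcb1, the Snf5 subunit that binds the nucleosome, had 11.38, 11.40, 11.49 and 11.35 in Rad21 esiRNA cells, against 11.69, 11.73, 11.74 and 11.68 in Luc cells, a difference of -0.31 ± 0.035 (SE, adjusted p = 0.00106). Smarce1, a subunit with an HMG domain whose second probe set was called higher (below), had 10.19, 10.13, 10.40 and 10.43 on the Rad21 esiRNA arrays, against 10.63, 10.66, 10.68 and 10.66 on the Luc arrays, with a difference of -0.37 ± 0.071 (adjusted p = 0.011), and its knock-down arrays of replicates 1 and 2 were lower than those of replicates 3 and 4. Actl6a, an actin-related subunit that BAF shares with INO80 and TIP60, had 13.04, 13.02, 12.99 and 13.01 with Rad21 esiRNA and 13.25, 13.14, 13.25 and 13.27 with Luc esiRNA, with a difference of -0.21 ± 0.032 (adjusted p = 0.00353). On all 3 the groups were apart although the differences were small. The calls of Smarce1 and Actl6a rested on the brightest probe set, since the mean of all probe sets of these genes gave -0.038 and -0.044 (adjusted p = 0.651 and 0.73). The other Smarcb1 probe set with signal gave -0.094 with overlapping groups and was not called (adjusted p = 0.202). The call of Smarcb1 did not hold within replicates 3 and 4 (adjusted p = 0.104), nor that of Actl6a within replicates 1 and 2 (0.168). The scaffold genes Smarcc1 (0.18, 95% interval -0.014 to 0.38) and Smarcc2 (0.16, -0.13 to 0.46) were not called. Actl6b, the paralog that takes the place of Actl6a in neurons, stayed at the low end of the scale, between 2.13 and 2.15 on the Rad21 esiRNA arrays and between 2.10 and 2.18 on the Luc arrays.

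**Figure D2:**
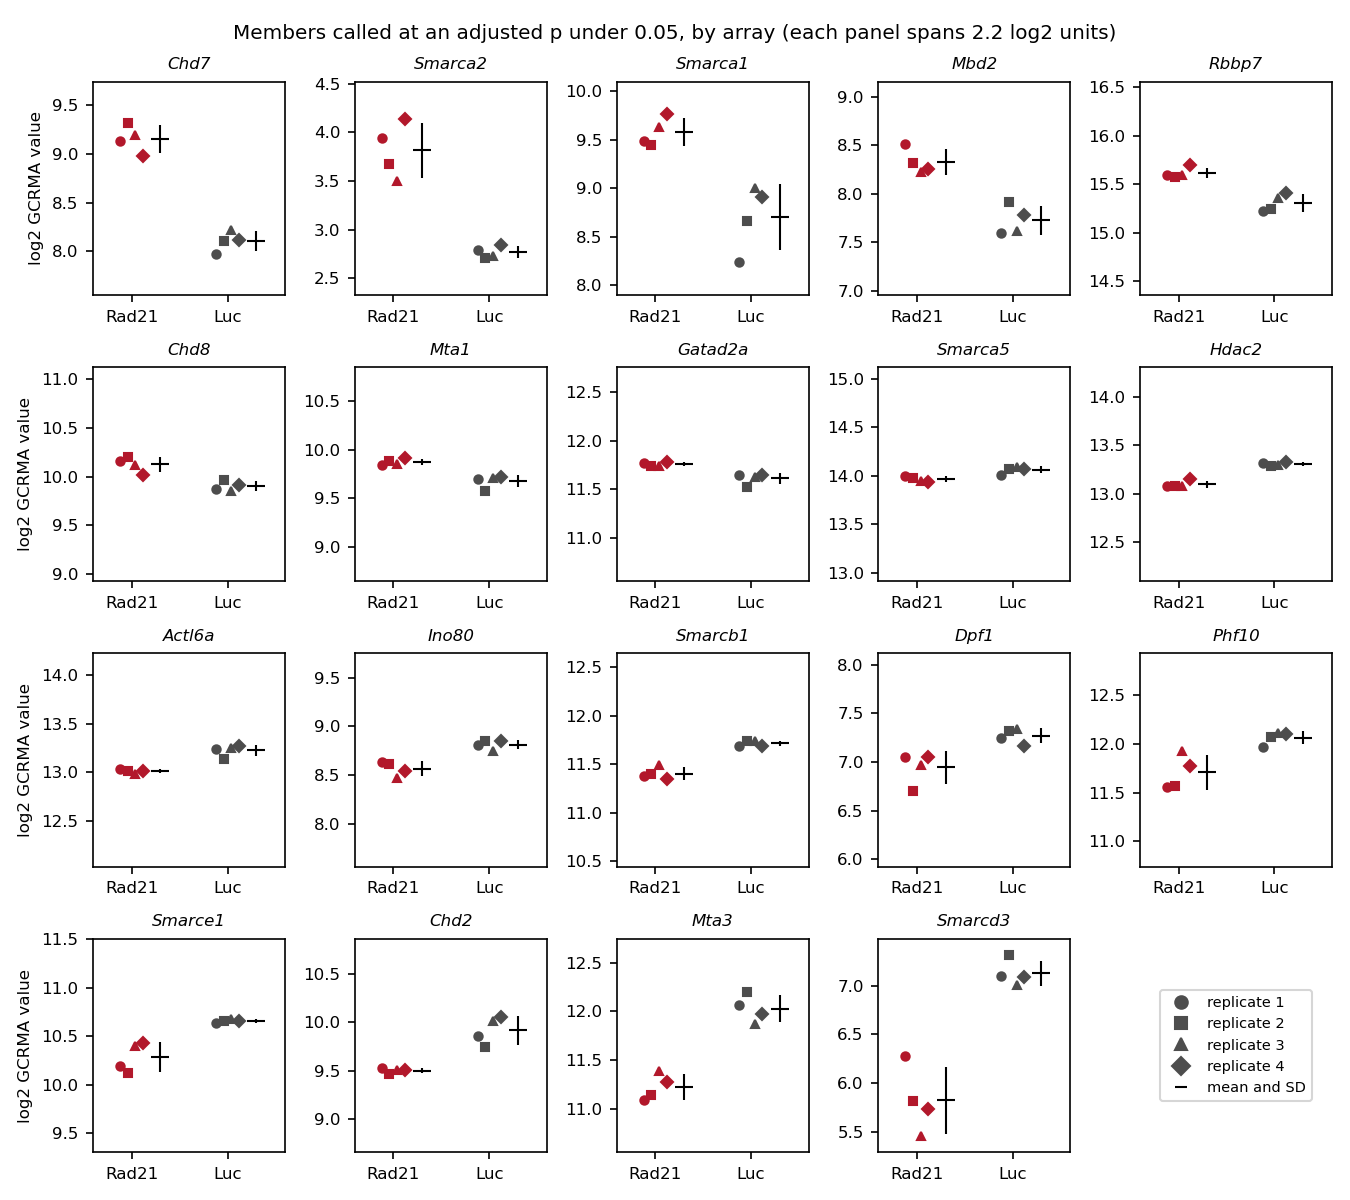
Log2 GCRMA values (vertical axis, each panel spanning 2.2 log2 units at its own level) of the 19 called members on the 4 Rad21 esiRNA arrays (red, left) and the 4 Luc arrays (grey, right), with symbols for the replicate number and the mean and SD (n = 4) beside the points. In every panel the groups do not overlap, and the gap is widest for Chd7 and Smarcd3 and narrowest for Smarca5, Phf10 and Chd8.

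Among the subunits that set canonical BAF apart, 1 of 5 was called (20%). The share was 22.6% over all genes and 38.6% over those with a mean of at least 4. Dpf1, a PHD finger subunit known from neuronal BAF, had 7.05, 6.70, 6.97 and 7.06 in Rad21 esiRNA cells, against 7.25, 7.32, 7.34 and 7.17 in Luc cells, and fell by 0.33 ± 0.084 on the log2 scale (SE, adjusted p = 0.0399). This call ended without Rad21 esiRNA replicate 1 or 3 or any single Luc array (highest adjusted p = 0.103) and in either replicate set alone. Its more widely expressed paralog Dpf2 had 10.39, 10.28, 10.27 and 10.44 on the Rad21 esiRNA arrays, against 10.30, 10.42, 10.49 and 10.57 on the Luc arrays, with overlapping groups and a difference of -0.10 (adjusted p = 0.468). Dpf3 had little signal in either group, at 2.40, 1.97, 1.98 and 2.001 with Rad21 esiRNA and 1.99, 1.94, 2.01 and 2.003 with Luc esiRNA, and a single knock-down array stood higher. The ARID subunits, which give canonical BAF its identity, differed in opposite directions without passing the test. Arid1a had values of 12.22, 12.30, 12.41 and 12.25 in Rad21 esiRNA cells, against 12.40, 12.44, 12.46 and 12.55 in Luc cells (difference -0.17, adjusted p = 0.0613). Arid1b had 9.03, 8.93, 8.97 and 8.98 on the Rad21 esiRNA arrays, against 8.83, 8.72, 8.88 and 8.93 on the Luc arrays (difference 0.14, adjusted p = 0.104). The arrays of Arid1b did not overlap.

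PBAF, which carries several bromodomains, had 1 called gene among its 4, and ncBAF none with its 1. That is 20% of the 5 genes, against 38.6% of all genes with a mean of at least 4 (22.6% of all genes). Phf10, a PBAF subunit known from proliferating progenitors, had 11.56, 11.57, 11.93 and 11.78 with Rad21 esiRNA and 11.97, 12.07, 12.11 and 12.10 with Luc esiRNA, with a difference of -0.36 ± 0.087 (SE, adjusted p = 0.033). The call ended without Rad21 esiRNA replicate 1, 2 or 4 or Luc replicate 2, 3 or 4 (highest adjusted p = 0.087) and in replicates 3 and 4 alone (0.129), whereas a second Phf10 probe set fell further (below). The PBAF subunits Arid2 (0.20, adjusted p = 0.0857), Brd7 (0.13, 0.418) and Pbrm1 (0.055, 0.459) were not called at their brightest probe sets. Within replicates 3 and 4 Brd7 was called (0.32, adjusted p = 0.0186), whereas within replicates 1 and 2 it had -0.052 (0.797). The ncBAF bromodomain gene Brd9 had 8.40, 8.33, 8.10 and 8.12 in Rad21 esiRNA cells, against 8.03, 7.99, 8.09 and 7.93 in Luc cells. Its arrays did not overlap, although the difference of 0.22 did not pass (adjusted p = 0.105), and it was called in replicates 1 and 2 alone (0.0197).

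Of the ISWI ATPases Smarca1 rose and Smarca5 fell by a small amount. Smarca1 (Snf2l), known from neurons and other differentiated cells, had 9.49, 9.44, 9.63 and 9.76 on the Rad21 esiRNA arrays, against 8.24, 8.66, 8.998 and 8.91 on the Luc arrays. Each Rad21 esiRNA array was above each Luc array, and the difference was 0.88 ± 0.17 (SE, adjusted p = 0.0109), a 1.84-fold rise that was called in both replicate sets. Its Luc arrays spread over 0.76 on the log2 scale, the widest Luc range among the called members. Smarca5 (Snf2h), the main ISWI ATPase of ESCs, had 14.00, 13.98, 13.95 and 13.94 with Rad21 esiRNA and 14.01, 14.07, 14.09 and 14.07 with Luc esiRNA. Its groups came within 0.0059 of each other, and its difference of -0.096 ± 0.026 lay just under the threshold (adjusted p = 0.0485). Only leaving out Luc replicate 1 kept this call (adjusted p up to 0.124 without one of the 7 others), and it was gone within replicates 1 and 2 (adjusted p = 0.787).

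Among the CHD ATPases outside NuRD, Chd7 rose at both of its probe sets. Chd7, an enhancer-bound remodeller mutated in CHARGE syndrome in humans, had 9.13, 9.32, 9.20 and 8.97 in Rad21 esiRNA cells, against 7.97, 8.10, 8.22 and 8.12 in Luc cells. The rise was 2.07-fold (log2 difference 1.05 ± 0.081, SE, adjusted p = 2e-04), and the second probe set gave 1.09 ± 0.082 (adjusted p = 1.83e-04) with values of 7.12, 7.22, 6.91 and 6.89 on the Rad21 esiRNA arrays, against 5.99, 5.86, 6.01 and 5.90 on the Luc arrays. Chd8, its relative, known as a repressor of Wnt and p53 target genes, had 10.16, 10.20, 10.12 and 10.02 with Rad21 esiRNA and 9.87, 9.97, 9.85 and 9.91 with Luc esiRNA, and rose less (0.23 ± 0.044, adjusted p = 0.0125). The groups were separated, but the call was lost within either replicate set (0.0526 and 0.142). Chd2, which is linked to deposition of the histone variant H3.3, was the CHD gene that fell, with 9.53, 9.46, 9.51 and 9.51 in Rad21 esiRNA cells, against 9.85, 9.74, 10.02 and 10.06 in Luc cells, and a difference of -0.41 ± 0.068 (adjusted p = 0.0059). It was called within both replicate sets, whereas its second probe set did not pass (-0.78, adjusted p = 0.084).

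The other CHD genes were not called at their brightest probe set. Chd1, which binds methylated H3K4 and keeps ESC chromatin open, had a difference of 0.088 there (95% interval -0.17 to 0.35), Chd6 one of 0.12 (0.012 to 0.22) and Chd9 one of -0.014 (-0.13 to 0.098). Other probe sets of Chd1 and Chd9 were called, as described with the probe sets below.

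In NuRD 4 genes rose and 2 fell, and neither ATPase gene was called in the fit of all probe sets. The genes that rose and fell were 30.8% and 15.4% of its 13 genes, all with a mean of at least 4. Of all genes of that brightness 16.7% rose and 22.0% fell (10.1% and 12.6% of all genes). Chd4, the ATPase that ESCs use most, had a difference of -0.045 (95% interval -0.21 to 0.12, adjusted p = 0.853), and Chd3, which was dim, one of -0.39 (-0.71 to -0.081, 0.107). Chd3 was called lower where only probe sets with a mean of at least 4 were fitted (adjusted p = 0.041) and with array weights (-0.52, adjusted p = 0.0339). Of the methyl-CpG-binding subunits, which are alternatives to each other, Mbd2 rose. It had 8.52, 8.32, 8.22 and 8.26 on the Rad21 esiRNA arrays, against 7.59, 7.91, 7.61 and 7.78 on the Luc arrays, with a difference of 0.60 ± 0.091 (SE, adjusted p = 0.0039), and its second probe set rose by 0.45 ± 0.053 (adjusted p = 0.00127). Mbd3 had 10.42, 10.33, 10.49 and 10.43 with Rad21 esiRNA and 10.55, 10.73, 10.54 and 10.46 with Luc esiRNA, with groups that overlapped and a difference of -0.15 (adjusted p = 0.18).

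The MTA scaffold genes, to which the deacetylases bind, moved in opposite directions. Mta3 had 11.09, 11.14, 11.39 and 11.27 in Rad21 esiRNA cells, against 12.06, 12.20, 11.87 and 11.98 in Luc cells. It fell to 57.2% of the Luc signal (-0.81 ± 0.088, SE, adjusted p = 9.26e-04) at a probe set of the _s_at kind, which can match more than 1 transcript. At its other probe set with signal, values were 8.97, 8.88, 8.87 and 8.94 on the Rad21 esiRNA arrays, against 9.09, 9.28, 8.97 and 8.99 on the Luc arrays, and the difference of -0.17 did not pass (adjusted p = 0.189). Mta1 rose slightly. Its values were 9.84, 9.88, 9.85 and 9.92 with Rad21 esiRNA and 9.70, 9.58, 9.71 and 9.72 with Luc esiRNA, a difference of 0.20 ± 0.037 (adjusted p = 0.0101), and it was called in neither replicate set alone (0.106 and 0.0759). Mta2 had 8.19, 8.06, 8.03 and 8.13 in Rad21 esiRNA cells, against 8.10, 7.95, 8.07 and 8.16 in Luc cells, overlapped and did not pass (0.033, adjusted p = 0.856).

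Of the deacetylase genes Hdac2 fell slightly and evenly. It had 13.08, 13.08, 13.08 and 13.15 on the Rad21 esiRNA arrays, against 13.32, 13.29, 13.29 and 13.33 on the Luc arrays, a difference of -0.21 ± 0.023 (adjusted p = 9.57e-04), which was lost without _x_at and _s_at probe sets (-0.20, adjusted p = 0.0672) and in replicates 3 and 4 alone (0.0707). Hdac1 had 12.80, 12.83, 12.88 and 12.84 with Rad21 esiRNA and 12.82, 12.93, 12.93 and 12.99 with Luc esiRNA, and a difference of -0.079 (adjusted p = 0.289). The histone chaperone genes Rbbp7 and Rbbp4, which PRC2 and other complexes also use, come next. Rbbp7 had 15.59, 15.58, 15.60 and 15.69 in Rad21 esiRNA cells, against 15.22, 15.24, 15.36 and 15.41 in Luc cells, and rose by 0.31 ± 0.050 (adjusted p = 0.0052). Rbbp4 had 14.94, 14.90, 14.94 and 14.91 on the Rad21 esiRNA arrays, against 14.96, 15.07, 14.98 and 15.04 on the Luc arrays, with no overlap and a difference of -0.087 that did not pass (adjusted p = 0.105). Both are probe sets of the _x_at kind, which can bind several transcripts. The rise of Rbbp7 was also called at its other probe set (0.28 ± 0.043, adjusted p = 0.00409) and was lost in replicates 3 and 4 alone (0.0716). Of the p66 genes Gatad2a had 11.77, 11.74, 11.74 and 11.78 with Rad21 esiRNA and 11.65, 11.53, 11.63 and 11.64 with Luc esiRNA, and rose by 0.15 ± 0.031 (adjusted p = 0.017). This ended without Rad21 esiRNA replicate 1 (adjusted p = 0.0506), within either replicate set (0.192 and 0.095) and without _x_at and _s_at probe sets (0.118). Gatad2b had 8.84, 8.78, 8.67 and 8.60 in Rad21 esiRNA cells, against 8.82, 8.52, 8.92 and 8.90 in Luc cells, with overlapping groups (-0.068, adjusted p = 0.833). It was called lower in replicates 3 and 4 alone (-0.28, 0.0367) and had 0.14 in replicates 1 and 2.

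Ino80, the ATPase of the complex that exchanges and spaces nucleosomes around H2A.Z, fell. Its values were 8.64, 8.61, 8.46 and 8.54 on the Rad21 esiRNA arrays, against 8.81, 8.85, 8.75 and 8.85 on the Luc arrays, a difference of -0.25 ± 0.043 (SE, adjusted p = 0.00739), with groups that did not overlap. The call was lost in either replicate set alone (0.0589 and 0.0735). Smarcad1, which helps to keep heterochromatin and retroelements silent, had 12.34, 12.43, 12.50 and 12.43 with Rad21 esiRNA and 12.47, 12.51, 12.68 and 12.68 with Luc esiRNA, and did not pass at this probe set (-0.16, adjusted p = 0.154).

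Related members were compared as 17 pairs of paralogs, most of which fill the same place in a complex. Brd9 of ncBAF and Brd7 of PBAF belong to different complexes. The log2 value of 1 gene was subtracted from that of the other on each array. Levels of different probe sets cannot be compared, so only the shift of this difference between the groups is given, without a test. For 10 of the 17 pairs the arrays of the groups did not overlap. All of these but Arid1a minus Arid1b hold a member called by itself, so the count largely repeats those calls. No share over pairs of other genes was taken. Of single genes 27.8% did not overlap, and 4707 of 10299 with a mean of at least 4. The difference was lower upon knock-down for Smarca5 minus Smarca1 (-0.97), Mbd3 minus Mbd2 (-0.75) and Rbbp4 minus Rbbp7 (-0.40). Arid1a minus Arid1b was lower as well (-0.31), with separated arrays, although neither gene was called by itself. It was higher for Smarcd1 minus Smarcd3 (1.19), Mta1 minus Mta3 (1.002), Mta1 minus Mta2 (0.16) and Hdac1 minus Hdac2 (0.13). Mta3 entered with its brightest probe set, and its fall was not called at the other one with signal. Smarca4 minus Smarca2 was lower too, by an amount that is not settled, since Smarca2 lay at the low end of the scale in Luc arrays. The shift of Actl6a against Actl6b (-0.23) is that of Actl6a, since Actl6b had no signal above the low end. The groups overlapped for Smarcc1 minus Smarcc2 (0.018), Brd9 minus Brd7 (0.090), Smarcd1 minus Smarcd2 (-0.10), Dpf2 minus Dpf3 (-0.20), Dpf2 minus Dpf1 (0.22), Gatad2a minus Gatad2b (0.22) and Chd4 minus Chd3 (0.35).

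**Figure D3:**
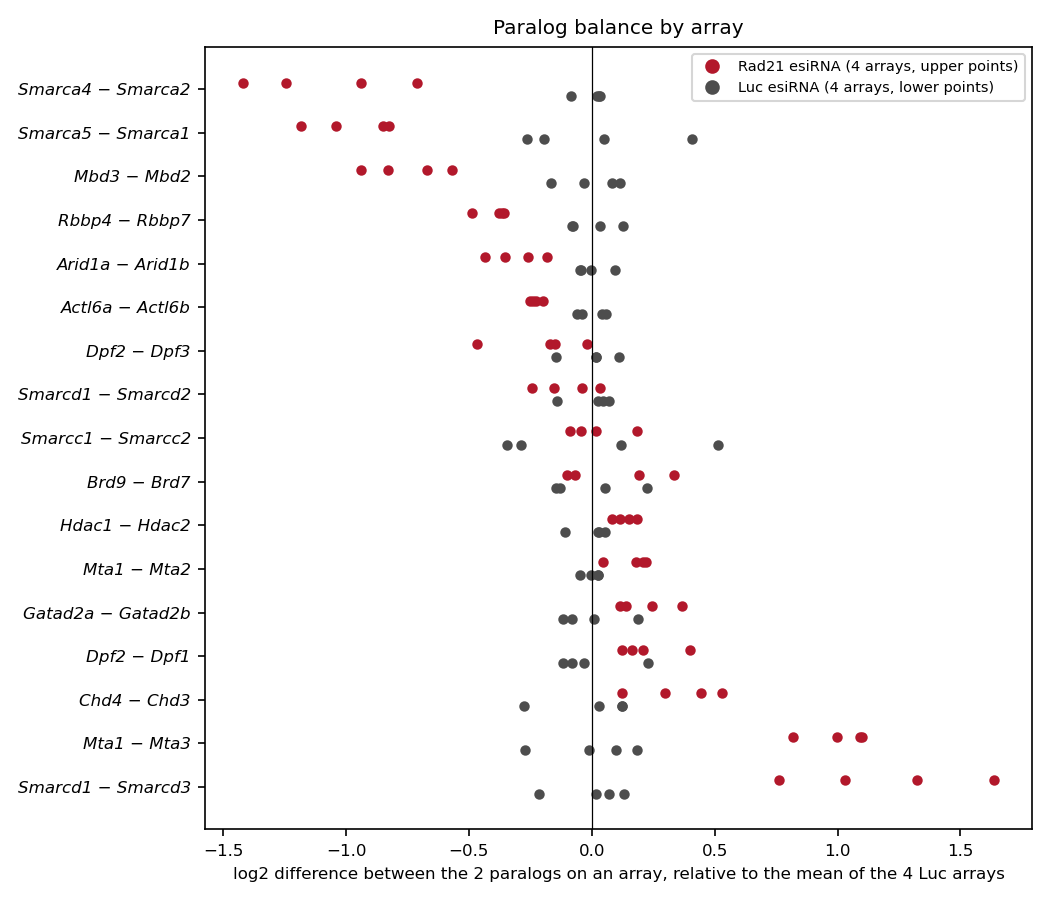
Difference between the log2 values of both genes of a pair on each array, relative to the mean of the 4 Luc arrays (horizontal axis), for 17 pairs of paralogs, with the 4 Rad21 esiRNA arrays in red and the 4 Luc arrays in grey. The red points lie apart from the grey ones for 10 pairs, among them Smarca5 minus Smarca1 (-0.97 on average) and Smarcd1 minus Smarcd3 (1.19), and the shift drawn for Smarca4 minus Smarca2 has no settled size, since Smarca2 had little signal in Luc arrays.

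Different probe sets of a gene can read different transcript forms, and 34 of the members had at least 2. Of the 105 member probe sets 34 were called (32.4%, against 14.9% of all probe sets). Chd7, Mbd2, Rbbp7, Phf10 and Ino80 were called in the same direction at both of their probe sets. The fall of Phf10 at the second probe set was -1.02 ± 0.11 (SE, adjusted p = 9.03e-04), with 7.55, 7.71, 7.29 and 7.21 in Rad21 esiRNA cells, against 8.54, 8.50, 8.45 and 8.36 in Luc cells, and held with any single array left out. The second Ino80 probe set fell by 1.63 on the log2 scale (adjusted p = 0.0414), with 5.09, 5.24, 3.26 and 4.56 on the Rad21 esiRNA arrays, against 5.96, 6.57, 6.01 and 6.12 on the Luc arrays, of which replicate 3 of the knock-down was far lower than the others. That call ended without Rad21 esiRNA replicate 4 or any single Luc array (highest adjusted p = 0.11).

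At 5 members the brightest probe set was not called and another was. Smarcad1 fell at its second probe set by 1.09 on the log2 scale (adjusted p = 0.00176), with 9.35, 9.33, 9.55 and 9.55 with Rad21 esiRNA and 10.17, 10.46, 10.70 and 10.80 with Luc esiRNA. Chd1 rose at its 3 other probe sets (0.47, 0.28 and 0.23, adjusted p = 0.00763, 0.0305 and 0.0194), and the mean of all its probe sets was called as well (0.27, adjusted p = 0.00346). Of these calls the first held with any single array left out, the second ended without Rad21 esiRNA replicate 2, 3 or 4 or Luc replicate 1 or 2, and the third without Rad21 esiRNA replicate 2 or 4 or Luc replicate 2 or 3 (highest adjusted p = 0.0822 and 0.0579). Arid2 rose at its second probe set (0.34, adjusted p = 0.00912), and Rbbp4 fell at the 2 probe sets next in brightness (-0.20 and -0.35, adjusted p = 0.00501 and 0.0165). Chd9 rose at a dim probe set only, by 1.93 ± 0.23 (adjusted p = 0.00131), with 5.27, 4.39, 5.10 and 5.05 in Rad21 esiRNA cells, against 3.51, 2.87, 2.84 and 2.88 in Luc cells. Its Luc values were near the low end, so the size is not settled.

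Smarce1 was the 1 member with called probe sets of opposite sign. Its second probe set had 9.54, 9.62, 9.78 and 9.70 on the Rad21 esiRNA arrays, against 9.40, 9.53, 9.32 and 9.32 on the Luc arrays, a rise of 0.27 ± 0.066 (adjusted p = 0.0338), so no direction can be given for the gene as a whole. The rise ended without Rad21 esiRNA replicate 2, 3 or 4 or Luc replicate 1, 3 or 4 (highest adjusted p = 0.092). Chd8 was also called at a second probe set (0.91, adjusted p = 0.049), a call that only leaving out Rad21 esiRNA replicate 3 kept (adjusted p up to 0.125 without one of the 7 others).

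**Figure D4:**
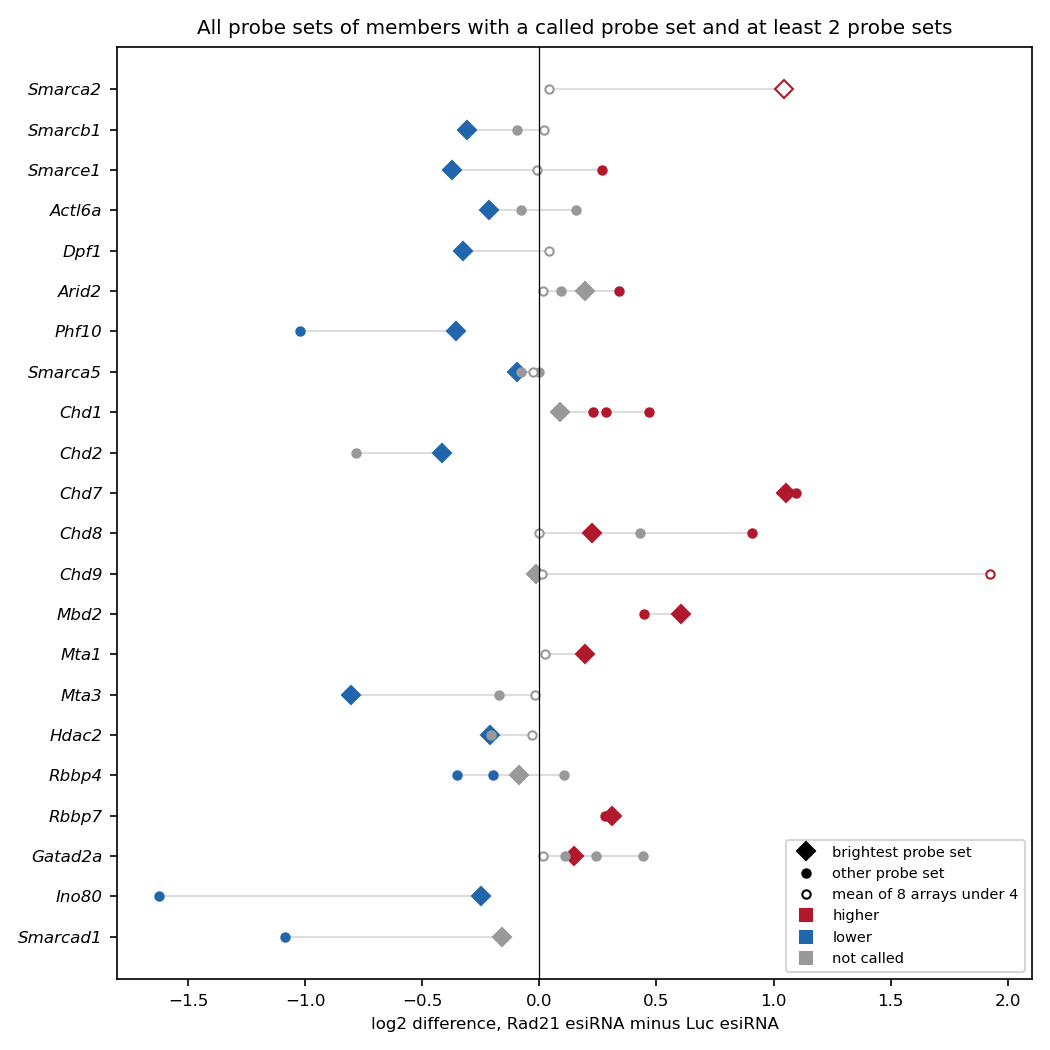
Log2 difference (Rad21 esiRNA minus Luc esiRNA, horizontal axis) at every probe set of the 22 members with at least 2 probe sets and at least 1 call, with diamonds for the brightest probe set, open symbols for a mean under 4 and colours for the call. The probe sets of Chd7 lie together, those of Chd9 reach from -0.014 to 1.93, and those of Smarce1 are called on both sides of 0.

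Further subunits, the related complexes SRCAP and TIP60, and other ATPases of the Snf2 type were measured as 5 lists with 64 genes. Of these 9 rose, 19 fell and 36 were not called (43.8% called, median -0.12), and 63 of them had a mean of at least 4, as did the genes of which 38.6% were called (22.6% of all genes). Among 10 further BAF genes Bcl11a (2.29), a zinc finger factor that joins neural BAF, and Ss18 (0.22), the subunit translocated in synovial sarcoma, rose, whereas Bicral (-0.93) of ncBAF and Bcl7c (-0.48) fell. Among 10 ISWI partners Bptf (0.23), the reader of methylated H3K4 in NURF, rose, and Baz2a (-0.45) and Pole3 (-0.30) fell. Of 8 further CHD and NuRD genes Zmynd8 (0.67) and Cdk2ap1 (0.16) rose, and Pwwp2b (-1.05) and Zfp296 (-0.78) fell, the call of Cdk2ap1 ending without any single array (highest adjusted p = 0.107).

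Of 25 genes of the INO80, SRCAP and TIP60 complexes, Ino80 itself not among them, 11 fell, 2 rose and 12 were not called, with a median of -0.20, against 22.0% lower and 16.7% higher of all genes with a mean of at least 4, as these 25 had (12.6% and 10.1% of all genes). Ruvbl2 (-0.59), an AAA ATPase gene that these complexes share, the actin-related gene Actr8 (-0.42) and Ing3 (-0.40), a PHD finger gene of TIP60, fell, and Epc1 (0.39) and Ino80c (0.29) rose. The call of Epc1 ended without Rad21 esiRNA replicate 1 or 2 or Luc replicate 1 or 2 (highest adjusted p = 0.0794), and those of Dmap1, Mcrs1 and Nfrkb, which fell by 0.20 to 0.35 on the log2 scale, ended without 6, 2 and 6 of the 8 arrays (highest adjusted p = 0.0994, 0.0571 and 0.125). Of 11 other ATPases of the Snf2 type Smarcal1 (-0.41) and Ttf2 (-0.26) fell and Hltf (0.26) and Btaf1 (0.15) rose. The call of Btaf1 ended without Rad21 esiRNA replicate 2 or 3 or Luc replicate 2 (highest adjusted p = 0.0549).

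Because replicates 1 and 2 lay apart from replicates 3 and 4, each difference was also taken within these sets. The groups did not overlap for any of the 19 called members, which fixes the same sign in both sets, so only sizes and calls within the sets are given. Replicates 1 and 2 gave Mta3 a difference of -1.02 and replicates 3 and 4 one of -0.60. In the same order the fall of Smarcd3 was -1.16 and -1.46, and the rise of Smarca1 1.02 and 0.74. At the brightest probe sets, differences between the sets passed the test for 0 of 44 members (limma interaction, adjusted p under 0.05). Of all genes 1.03% passed, and the lowest adjusted p among the members was that of Brd7 (0.0565). At an unadjusted p under 0.05 there were 8 of 44, against 15.4% of all genes. A dimmer probe set of Actl6a did pass the interaction test (-0.70, adjusted p = 0.0276). It had 0.51 in replicates 1 and 2 (adjusted p = 0.011) and -0.19 in replicates 3 and 4 (0.0533). Called in both sets alone were 7 members, Smarcd3, Smarce1, Smarca1, Chd2, Chd7, Mbd2 and Mta3. The share of all genes called in both sets was not taken, so this count has no background. Of all 18193 genes, replicates 1 and 2 called 1643 higher and 1972 lower, and replicates 3 and 4 called 1395 and 1396.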

How the data were processed

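RNA of mouse ESCs, 4 samples with Rad21 esiRNA and 4 with Luc esiRNA, was hybridised to Affymetrix mouse whole-genome arrays. The authors deposited log2 values, which they had made with GCRMA in Partek version 6.4 per the labels. Depth does not apply to arrays, and precision is set by having 4 arrays a group. Of 45101 probe sets 64 controls were left out, and the 45037 others were fitted without further normalization with limma 3.58.1 in R 4.3.3 (lmFit and eBayes on the groups, Benjamini-Hochberg adjustment over all probe sets, threshold 0.05). Symbols came from the platform annotation, with 1 symbol for 34945 probe sets, several for 932 and none for 9160. Of those with 1 symbol, 34741 were found by gene ID in RefSeq (GRCm38.p6) and 0 changed. A gene was represented by the probe set with the highest mean over the 8 arrays. All 44 members are reported, with values per array for called ones and their paralogs. Of further lists up to 3 called genes in each direction are named by size, beside those whose call hung on single arrays. The members and lists were chosen with earlier results of these data known. The replicate sets 1 and 2, 3 and 4 were defined from a principal component. Promoter motifs were searched as letters on both strands.

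The fit was tested on simulated data over 45037 probe sets (5 runs), where it recovered 46.8% of the changes of 0.25 log2 units, 66.8% of those of 0.5, 89.6% of those of 1 and 98.8% of those of 2. False calls made up 5.98%. The simulation changed far fewer probe sets than were called in the data and drew them from probe sets of any brightness. These rates are therefore not those for the members. As alternatives, single arrays were left out, each replicate set was fitted alone, a replicate block or weights per array were added, values were quantile normalized or centred on bright probe sets, low means were filtered, probe sets were chosen otherwise, and the threshold was changed.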

Additional observations from a re-analysis of the deposited data

Results flagged for a closer look

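In 4 of 88 groups of 4 arrays (the 44 members in both conditions), 1 array stood apart by Dixon's test at the 95% level, which chance alone gives in about 1 in 20 groups. Among the members with little signal, Dpf3 had 2.40 in replicate 1 of the Rad21 esiRNA arrays, with the nearest array at 2.00, and Actl6b had 2.18 in replicate 1 of the Luc arrays, with the nearest at 2.11. Hdac2 had 13.15 in replicate 4 of the Rad21 esiRNA arrays, with the nearest at 13.08. Mta1 had 9.58 in replicate 2 of the Luc arrays, with the nearest at 9.70. The calls of Hdac2 and Mta1 held without any of these arrays.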

How the results depend on the processing

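Of the 19 called members, Smarcd3, Smarca1, Chd2, Chd7 and Mbd2 stayed called under each alternative to the fit and the arrays used, and 11 of the 19 at an adjusted p under 0.01, where Smarca1 was lost. That threshold left 4 members higher and 7 lower (1111 and 1368 of all genes). Replicates 1 and 2 alone gave 6 members higher and 7 lower (1643 and 1972 of all genes). Replicates 3 and 4 alone gave 4 higher and 7 lower (1395 and 1396 of all genes). Fewer arrays were fitted in both. With single arrays left out, 7 to 9 members were higher and 8 to 11 lower (1468 to 1680 and 1837 to 2132 of all genes), and Rad21 differed by -1.73 to -1.45. Smarca5 was lost under 16 settings, Dpf1 under 13, Phf10 under 10 and Gatad2a under 5. Taking the replicate number as a block left 9 members higher and 9 lower, with Dpf1 and Smarca5 lost and Smarcc1 gained (1710 and 2066 of all genes). Samples of the same number correlated by 0.022 to 0.133 in their deviations, so the numbers were not taken to pair them. With the replicate sets as a block, Arid1a, Arid2, Smarcad1 and Smarcc1 were gained and Smarca5 lost. The analysis of variance of the methods kept 16 of the 19, without Dpf1, Phf10 and Smarca5. Reversed differences concerned members not called, mostly near 0, and their cause was not tested. In replicates 1 and 2 alone these were Actl6b (-0.0033), Brd7 (-0.052) and Gatad2b (0.14), and in replicates 3 and 4 alone Smarcc2 (-0.060), Smarcd2 (0.033), Dpf3 (-0.015), Chd9 (0.0061) and Mta2 (-0.037). Quantile normalization gave Smarca4 0.018, Smarcd2 0.0063 and Chd9 0.015, centring on bright probe sets (a shift of -0.029) Smarcd2 0.0099 and Chd9 0.015, and array weights Smarcd2 0.016, Chd9 0.013 and Mta2 -0.0097. The mean of all probe sets gave Smarcd2 0.041 and Chd9 0.64, and called Chd9. With single arrays left out, differences spanned -0.062 to 0.019 for Smarcd2, -0.0029 to 0.14 for Dpf3, -0.0017 to 0.15 for Chd1, -0.052 to 0.011 for Chd9 and -0.0073 to 0.064 for Mta2. Arrays limit low signals, so differences of Smarca2, Actl6b and Dpf3 have no settled size.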
